A study of Mus musculus with 16 samples.

Results

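Mouse calvarial osteoblast cultures were examined here for transcripts that are known from macrophages. The genes were given as a list of 10 symbols, Tyrobp, Fcer1g, Csf1r, Mrc1, Cd14, Adgre1, Cd68, Lyz2, C1qb and Ccl4, and every probe annotated to one of them was taken. Of these 10 genes, 8 had a probe, and all 8 were detected on all 16 arrays, against 9560 genes and unnamed probes tested in all. No probe was paired with Csf1r or Cd68 in the annotation used, so both are not analysed here.

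The cells were primary calvarial osteoblasts of C57BL6/J mice of mixed gender, released with collagenase P from neonates 3 to 9 days old and therefore a mixed isolate and not a sorted one. They were transfected with Lipofectamine carrying a scrambled siRNA, SC, or one of the siRNAs BICC1_1, BICC1_2 and BICC1_3 against Bicc1, an RNA-binding protein gene, and total RNA was taken 48 hours later. Each of the 4 groups has 4 arrays, and all groups, SC included, went through transfection. The labels do not say that replicates came from separate isolates or mice, so p-values measure only the spread between these samples, which may be technical.

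Macrophages are phagocytes of the innate immune system whose survival depends on the receptor Csf1r and its ligands Csf1 and Il34. In bone they are known to line surfaces next to osteoblasts, and they share a precursor with the osteoclast, the cell that resorbs bone. A digest of bone is known to carry such cells into culture. In total RNA from a mixed culture, fewer cells of a type and less RNA per cell cannot be told apart.

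Promoter sequence was taken for 4 of the 8 measured genes. The 3 shown belong to the pair with the highest correlation over the arrays of usual profile, Fcer1g and C1qb, and to Lyz2, the gene with the lowest correlation with Tyrobp over all arrays. Each runs from 150 bases before to 50 bases after the RefSeq start site in GRCm38.p6, on the strand of the gene. Fcer1g lies on the minus strand at chr1:171234300-171234499, C1qb on the minus strand at chr4:136886151-136886350, and Lyz2 on the minus strand at chr10:117282223-117282422. Capitals mark GGAA on either strand, the core read by ETS factors such as PU.1, the product of the macrophage regulator gene Spi1.
Fcer1g: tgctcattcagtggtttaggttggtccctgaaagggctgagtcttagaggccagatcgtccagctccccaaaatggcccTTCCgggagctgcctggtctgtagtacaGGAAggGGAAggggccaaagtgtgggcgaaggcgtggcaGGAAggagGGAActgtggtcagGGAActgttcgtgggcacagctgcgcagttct
C1qb: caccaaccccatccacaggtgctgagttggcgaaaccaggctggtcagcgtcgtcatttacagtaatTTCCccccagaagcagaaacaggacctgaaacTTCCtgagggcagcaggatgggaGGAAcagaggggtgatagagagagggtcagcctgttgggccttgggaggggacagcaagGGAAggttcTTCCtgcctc
Lyz2: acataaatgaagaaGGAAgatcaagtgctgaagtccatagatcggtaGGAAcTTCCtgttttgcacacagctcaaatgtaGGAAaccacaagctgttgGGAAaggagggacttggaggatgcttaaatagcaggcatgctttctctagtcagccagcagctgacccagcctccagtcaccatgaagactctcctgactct
The core occurred 6 times in the Fcer1g window and 5 times each in those of C1qb and Lyz2. It is common, being present in 95.9% of all 27025 promoters of 300 bases. The longer PU.1-type box GAGGAA, which contains the core and was searched on both strands, was present in 28.3% of them. Over the same 300 bases the box occurred 1 time for C1qb, 3 times for Mrc1, and not for Fcer1g or Lyz2. These matches describe the letters of the windows and are no evidence of binding.

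The arrays were alike in overall brightness, with a median raw intensity of 84.8 to 111 and 11990 to 12863 probes detected. The osteoblast label was mixed by its markers. Col1a1, the main bone collagen gene, had a mean of 13.93 ± 0.10 (SD, n = 4) log2 units in SC and Sparc, osteonectin, 14.82 ± 0.03. Of 16 osteoblast markers listed, 8 were tested. Sp7 and Col1a2 were detected on all arrays, Alpl on 15 and Phex on 11, while Ibsp was detected on 1 and Bglap, Dmp1, Ifitm5 and Dlx5 on none. Bicc1 itself fell by 0.90 (log2) against SC with BICC1_1 and fell by 1.59 with BICC1_2 (limma, adjusted p = 0.0345 and 7.98e-06). On the arrays labelled BICC1_3 it differed from SC by -0.10 (adjusted p = 0.776), so that label is used without a claim that Bicc1 was lowered. On 3 arrays, 2 gene families that are otherwise stable lay low relative to the other 13 arrays. The median of 52 ribosomal protein genes stood at -0.76 on BICC1_3 replicate 1, -0.41 on BICC1_1 replicate 3 and -0.07 on BICC1_2 replicate 3, against -0.04 to 0.03 on the 13. The median of 32 NADH dehydrogenase genes stood at -1.45, -0.77 and -0.24 on the same arrays, against -0.05 to 0.05. The results on the macrophage genes are therefore given with and without these 3 arrays. Levels below are log2 intensities after background correction and quantile normalisation, in the order of replicates 1 to 4, and a level is compared only with the same probe on other arrays.

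Tyrobp and Fcer1g encode small membrane adaptors that carry activating signals for receptors such as Trem2 and the Fc receptors. Tyrobp (probe ILMN_2867147) read 7.44, 7.20, 7.59 and 7.35 in SC, 7.50, 7.61, 6.88 and 7.72 with BICC1_1, 7.35, 7.35, 7.05 and 7.35 with BICC1_2, and 5.79, 7.64, 7.39 and 7.44 with BICC1_3. The 3 arrays with low ribosomal protein signals held the lowest Tyrobp values, and the other 13 overlapped from group to group. Fcer1g (ILMN_2748875) read 10.22, 9.90, 10.20 and 10.06 in SC, 10.25, 10.22, 9.89 and 10.38 with BICC1_1, 10.15, 10.04, 9.94 and 9.86 with BICC1_2, and 8.52, 10.30, 10.22 and 10.32 with BICC1_3. One array, BICC1_3 replicate 1, lay far below all others for both adaptors. Against SC, the differences for Tyrobp were 0.03, -0.12 and -0.33 (each SE 0.30) with BICC1_1, BICC1_2 and BICC1_3. Those for Fcer1g were 0.09, -0.09 and -0.25 (each SE 0.29). None of these passed the test. Without the 3 arrays they were 0.21, -0.05 and 0.09 (each SE 0.09) for Tyrobp and 0.19, -0.08 and 0.19 (each SE 0.09) for Fcer1g, so the sign with BICC1_3 turned, and again none passed.

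Mrc1, Cd14 and Adgre1 encode surface proteins: the mannose receptor, the co-receptor that presents lipopolysaccharide to Toll-like receptor 4, and the F4/80 antigen used to mark mouse macrophages. Mrc1 (ILMN_1239430) read 8.97, 8.83, 9.07 and 9.00 in SC, 8.98, 9.09, 9.68 and 9.28 with BICC1_1, 9.35, 8.91, 9.39 and 9.11 with BICC1_2, and 9.11, 9.30, 9.06 and 9.39 with BICC1_3. Its SC arrays were among the lowest, although each siRNA group overlapped them. The Mrc1 mean was above SC by 0.29 with BICC1_1, by 0.22 with BICC1_2 and by 0.25 with BICC1_3 (each SE 0.14). None of these passed, with limma adjusted p = 0.808, 1 and 0.583. Without the 3 arrays they were 0.15, 0.16 and 0.28 (each SE 0.11), which did not pass. Cd14 (ILMN_2742075) read 7.40, 7.05, 7.35 and 7.48 in SC, 7.20, 7.46, 7.56 and 7.60 with BICC1_1, 7.24, 7.69, 7.38 and 7.11 with BICC1_2, and 7.14, 7.42, 7.43 and 7.38 with BICC1_3. Cd14 covered nearly the same range in each group and differed from SC by 0.14, 0.03 and 0.02 (each SE 0.13), and by 0.10, 0.03 and 0.09 (each SE 0.14) without the 3 arrays.

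Adgre1 (ILMN_1216880) read 8.24, 8.12, 8.30 and 8.35 in SC, 8.18, 8.12, 8.52 and 8.74 with BICC1_1, 8.25, 8.28, 8.39 and 8.24 with BICC1_2, and 7.79, 8.40, 8.40 and 8.24 with BICC1_3. The lowest value was again on BICC1_3 replicate 1 and the highest on BICC1_1 replicate 4, an array with usual ribosomal protein signals. The differences from SC were 0.14, 0.03 and -0.05 (each SE 0.14), and 0.09, 0 and 0.09 (each SE 0.12) without the 3 arrays. A second detected Adgre1 probe (ILMN_2847787) followed the first within groups. Their deviations from group means correlated at 0.85 on 16 arrays and at 0.85 on the 13. Its group differences were not the same. Against SC they were 0.14, -0.05 and 0.04 (each SE 0.16), and 0.12, -0.16 and 0.23 (each SE 0.09) without the 3 arrays. There BICC1_2 against BICC1_3 gave -0.39 (SE 0.09, limma adjusted p = 0.231), against -0.09 (SE 0.13) on the first probe. None of these passed. Another Adgre1 probe, ILMN_2756353, was detected on no array.

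The secreted products were lysozyme (Lyz2), the C1q B chain of the complement starter complex (C1qb) and the chemokine Ccl4, which attracts monocytes and lymphocytes. C1qb (ILMN_2619620) read 9.53, 9.11, 9.63 and 9.38 in SC, 9.55, 9.46, 9.88 and 9.57 with BICC1_1, 9.52, 9.39, 9.51 and 9.19 with BICC1_2, and 8.64, 9.58, 9.63 and 9.51 with BICC1_3. Ccl4 (ILMN_1223257) read 7.96, 7.92, 8.06 and 7.80 in SC, 7.71, 8.10, 7.81 and 8.31 with BICC1_1, 7.77, 7.89, 7.42 and 7.59 with BICC1_2, and 5.95, 8.07, 7.75 and 7.86 with BICC1_3. Both were lowest on BICC1_3 replicate 1, and all groups overlapped. C1qb differed from SC by 0.20, -0.01 and -0.07 (each SE 0.18), and Ccl4 by 0.05, -0.27 and -0.53 (each SE 0.32). Without the 3 arrays the values were 0.12, -0.04 and 0.16 (each SE 0.11) for C1qb and 0.11, -0.19 and -0.04 (each SE 0.13) for Ccl4, so the Ccl4 difference with BICC1_3 rested on replicate 1. A second Ccl4 probe, detected on 8 arrays, correlated with the first at 0.71 on 16 arrays and 0.74 on the 13.

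**Figure D1:**
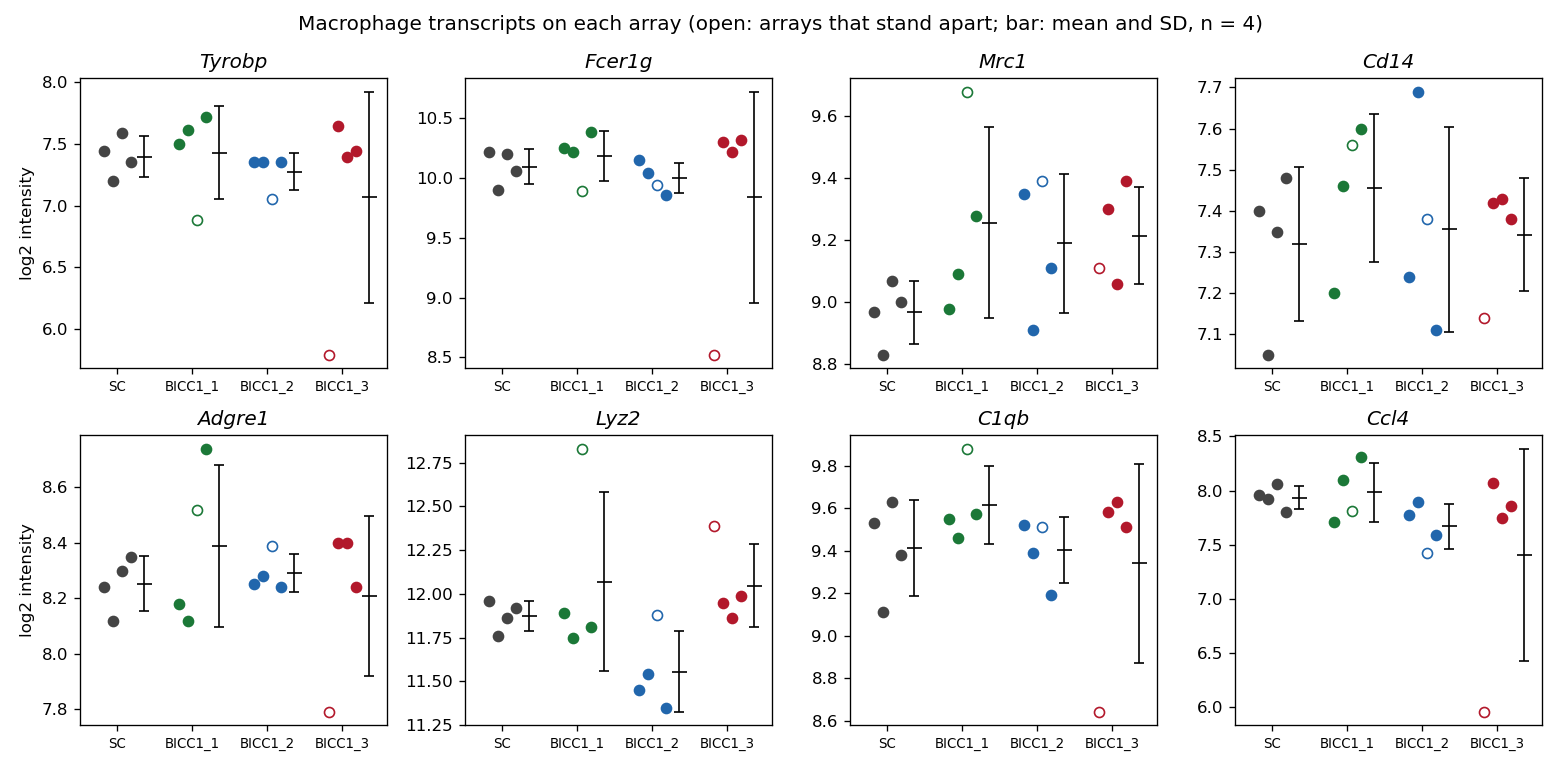
Level of each of the 8 detected macrophage transcripts (y axis, log2 intensity) on each of 16 arrays by siRNA group (x axis). Points are arrays, open points are the 3 arrays with low ribosomal protein signals, and bars give the mean and SD of 4 arrays; the open BICC1_3 point, replicate 1, lies lowest for Tyrobp, Fcer1g, Adgre1, C1qb and Ccl4, and the open BICC1_1 point lies highest for Lyz2.

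Lyz2 was the macrophage gene with the clearest difference between siRNAs, but it passed a test only without the 3 arrays of low ribosomal protein signals. Its brightest probe (ILMN_1252076) read 11.96, 11.76, 11.86 and 11.92 in SC, 11.89, 11.75, 12.83 and 11.81 with BICC1_1, 11.45, 11.54, 11.88 and 11.35 with BICC1_2, and 12.39, 11.95, 11.86 and 11.99 with BICC1_3. With BICC1_2, 3 of 4 arrays lay below every other array, and the fourth, replicate 3, reached the level of SC. Over all 16 arrays Lyz2 was lower with BICC1_2 than in SC by a difference of -0.32 (SE 0.19, limma adjusted p = 1), which did not pass. The difference of BICC1_1 from BICC1_2 was 0.52 (unadjusted p = 0.0169, adjusted p = 0.536) and that of BICC1_2 from BICC1_3 was -0.50 (unadjusted p = 0.0213, adjusted p = 0.505).

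Without the 3 arrays of low ribosomal protein signals, Lyz2 fell with BICC1_2 against SC by 0.43 (log2, SE 0.07, limma adjusted p = 0.0288), and 0.115% of all genes were called in that comparison. It was also higher with BICC1_1 than with BICC1_2 by 0.37 (SE 0.07, adjusted p = 0.0446, background 0.408%), and lower with BICC1_2 than with BICC1_3 by a difference of -0.49 (SE 0.07, adjusted p = 0.0258, background 0.0732%). The test for any difference over the 4 groups then called Lyz2 as well, beside 0.188% of all genes. The spread of Lyz2 within groups was 0.31 (residual SD) with all arrays and 0.08 without the 3. Leaving out any single array did not give the call. Among the arrays left out together is BICC1_2 replicate 3, the array of that group at the level of SC, whose ribosomal protein median departed least. The others left out, BICC1_1 replicate 3 and BICC1_3 replicate 1, held the highest Lyz2 values, 12.83 and 12.39. The 3 arrays were singled out in these same data, and the adjusted p-values do not allow for that choice.

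The other detected lysozyme probes gave differences of the same sign that did not pass. Deviations from group means on both detected Lyz2 probes correlated at 0.62 on 16 arrays and at 0.42 on the 13. These coefficients were lower than those between the Adgre1 probes and between the Ccl4 probes. Another Lyz2 probe, ILMN_2766780, was detected on no array. The second Lyz2 probe (ILMN_2939681) read 10.45, 10.07, 10.31 and 10.46 in SC, 10.19, 9.89, 10.78 and 10.52 with BICC1_1, 9.76, 10.11, 10.22 and 10.11 with BICC1_2, and 10.34, 10.46, 10.42 and 10.40 with BICC1_3. Its BICC1_2 arrays overlapped those of SC, with a difference of -0.27 (SE 0.15) on 16 arrays and of -0.33 (SE 0.14, adjusted p = 0.573) on the 13. Lyz1, the neighbouring lysozyme gene of nearly the same sequence, differed by -0.22 (SE 0.14) on 16 arrays and by -0.30 (SE 0.08, adjusted p = 0.190) on the 13. Because of that likeness, signal from Lyz1 and Lyz2 transcripts on these probes cannot be told apart here. The other 7 macrophage genes were called in no comparison on the 13 arrays.

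**Figure D2:**
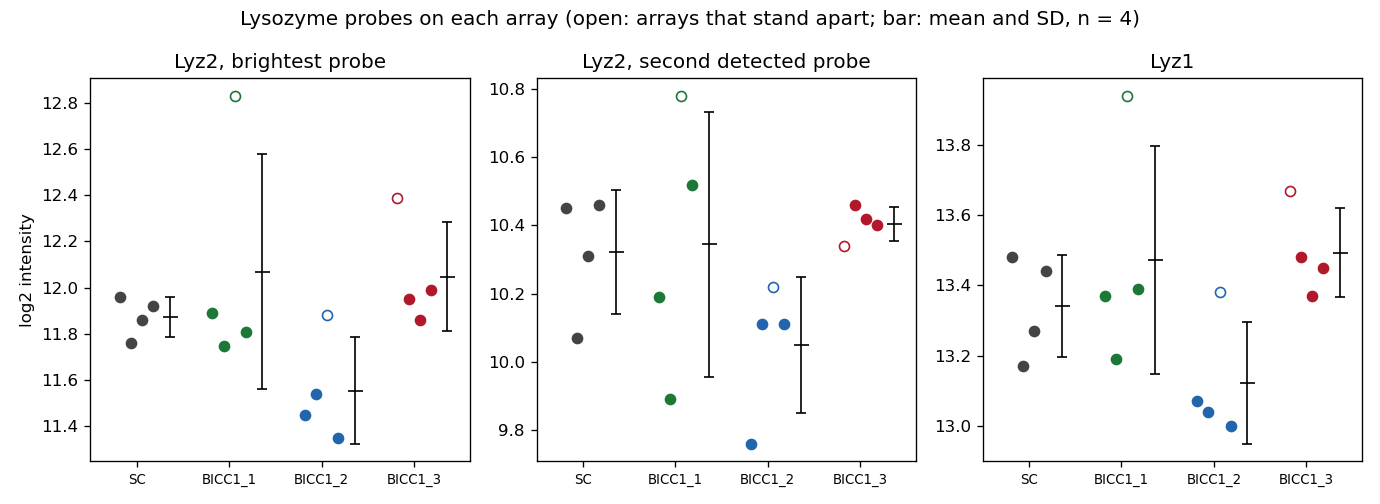
Log2 intensity (y axis) of both detected Lyz2 probes and of Lyz1 on each array by siRNA group (x axis), with open points for the 3 arrays of low ribosomal protein signals and bars for the mean and SD of 4 arrays. On the brightest Lyz2 probe the filled BICC1_2 points, 11.45, 11.54 and 11.35, lie below every other array.

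Over all 16 arrays, 0 of the 8 macrophage genes were called in any of the 6 comparisons between groups (limma, Benjamini-Hochberg adjusted p under 0.05 over 9560 genes). The share of all genes called was 0.0209% for BICC1_1 against SC, 0.0523% for BICC1_2 against SC and 0.0105% for BICC1_3 against SC. It was 0.282% for BICC1_1 against BICC1_2, 0.0732% for BICC1_1 against BICC1_3 and 0.115% for BICC1_2 against BICC1_3. With a background so near 0, a count of 0 of 8 says nothing particular about these genes. The test for any difference over the 4 groups called 0 of 8 as well, with adjusted p from 0.63 for Lyz2 to 0.926 for Cd14, beside 0.209% of all genes. In 0 of 48 pairings of a gene with a comparison did the ranges of the groups fall apart, but over all genes this happened in 2.79% to 6.6% per comparison, so the count is near the background and says nothing particular about the 8.

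The signs of the mean differences were uneven. Of the 8 genes, 8 lay above 0 for BICC1_1 against SC with a median difference of 0.14, 3 for BICC1_2 against SC with a median of -0.05, and 3 for BICC1_3 against SC with a median of -0.06. The median over all genes was 0, 0 and -0.01 in the same comparisons. Without the 3 arrays, 7, 3 and 7 of 8 lay above 0, with medians of 0.11, -0.04 and 0.09, so that the median for BICC1_3 turned sign. Between siRNAs the turn was wider: for BICC1_2 against BICC1_3, 6 of 8 lay above 0 on 16 arrays (median 0.07) and 0 of 8 on the 13 (median -0.14). For BICC1_1 against BICC1_3 it was 8 of 8 (median 0.23) and 4 of 8 (median 0). These comparisons share the SC arrays, and the 8 genes share each array's RNA, so the signs are not independent of one another.

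Whether the 8 genes moved together was examined within groups, after the mean of each group was removed from each gene. Over 16 arrays, 23 of the 28 gene pairs had a positive correlation, or 82.1%, with a median Pearson r of 0.48 and a range of -0.69 to 0.96. Among pairs of all tested genes the median was 0, the quartiles were -0.31 and 0.31, and 50.3% were positive. The adaptors and the chemokine formed the tightest set. Tyrobp and Fcer1g correlated at r = 0.96 (rho = 0.87, permutation p = 0.00168 and 0.00337, adjusted over the 28 pairs p = 0.0278 and 0.0315). Tyrobp and Ccl4 correlated at r = 0.94 (rho = 0.90, permutation p = 0.00209 and 0.00145, adjusted p = 0.0278 and 0.0232). Cd14 and Adgre1 correlated at r = 0.62 (rho = 0.76, permutation p = 0.00298 and 0.00166, adjusted p = 0.0278 and 0.0232). Without the 2 arrays farthest from the median of the first gene of each pair, these coefficients were 0.87, 0.87 and 0.73. The group means used there still held the arrays left out, so these coefficients cannot show how the pairs stand without them. With means taken anew on the 13 arrays, the same pairs stood at 0.65, 0.68 and 0.52.

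Lyz2 ran against this set on the full 16 arrays. Its correlation with Tyrobp was r = -0.69 (rho = -0.60, permutation p = 0.0114 and 0.0109, adjusted p = 0.0641 and 0.0621), which did not pass. The opposite movement sat on the arrays with low ribosomal protein signals. On BICC1_3 replicate 1, against the mean of the other 13 arrays, Ccl4 stood at -1.96, Tyrobp at -1.66, Fcer1g at -1.64, C1qb at -0.82, Adgre1 at -0.51 and Cd14 at -0.23. On that same array Mrc1 stood at 0.01 and Lyz2 at 0.62. On BICC1_1 replicate 3, Lyz2 stood at 1.05, Mrc1 at 0.57 and C1qb at 0.42, while Tyrobp stood at -0.57. On these arrays the 8 genes thus did not shift by a common amount or in a common direction, and the part that the low ribosomal protein and NADH dehydrogenase signals have in this was not tested.

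**Figure D3:**
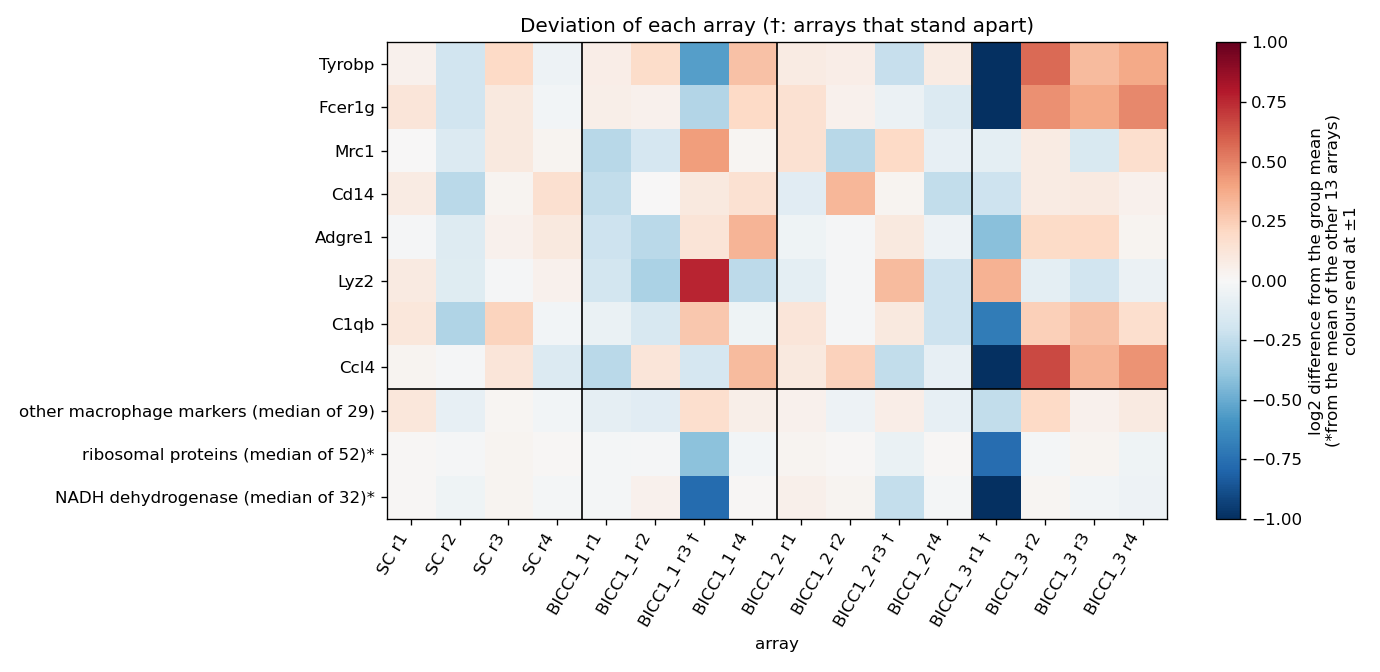
Difference of each array (x axis) from its group mean for the 8 macrophage transcripts and for the median of 29 other macrophage markers, with the ribosomal protein and NADH dehydrogenase medians set against the mean of the other 13 arrays (colour, log2, ending at -1 and 1). The arrays marked with a dagger have low ribosomal protein and NADH dehydrogenase medians, and on BICC1_3 replicate 1 Tyrobp, Fcer1g and Ccl4 are deep blue while Lyz2 is red.

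Without those 3 arrays, 28 of 28 pairs were positive, with a median of 0.49 and a range of 0.02 to 0.87. The median over pairs of all genes was 0.01 on the 13 arrays and 50.7% were positive. The highest were Fcer1g with C1qb at r = 0.87 (rho = 0.78, permutation p = 0.00777 and 0.0170, adjusted p = 0.160 and 0.238) and Tyrobp with Ccl4 at r = 0.68 (rho = 0.74, permutation p = 0.0114 and 0.00950, adjusted p = 0.160 and 0.238). Without the 2 arrays farthest from the median of the first gene, and again with the group means unchanged, these were 0.69 and 0.84. No pair passed adjustment on the 13 arrays, and Tyrobp with Lyz2 stood at 0.22. Leaving out BICC1_3 replicate 1 alone gave a median of 0.23 over the 28 pairs. The pairs share genes and arrays, so the 28 values are not independent.

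**Figure D4:**
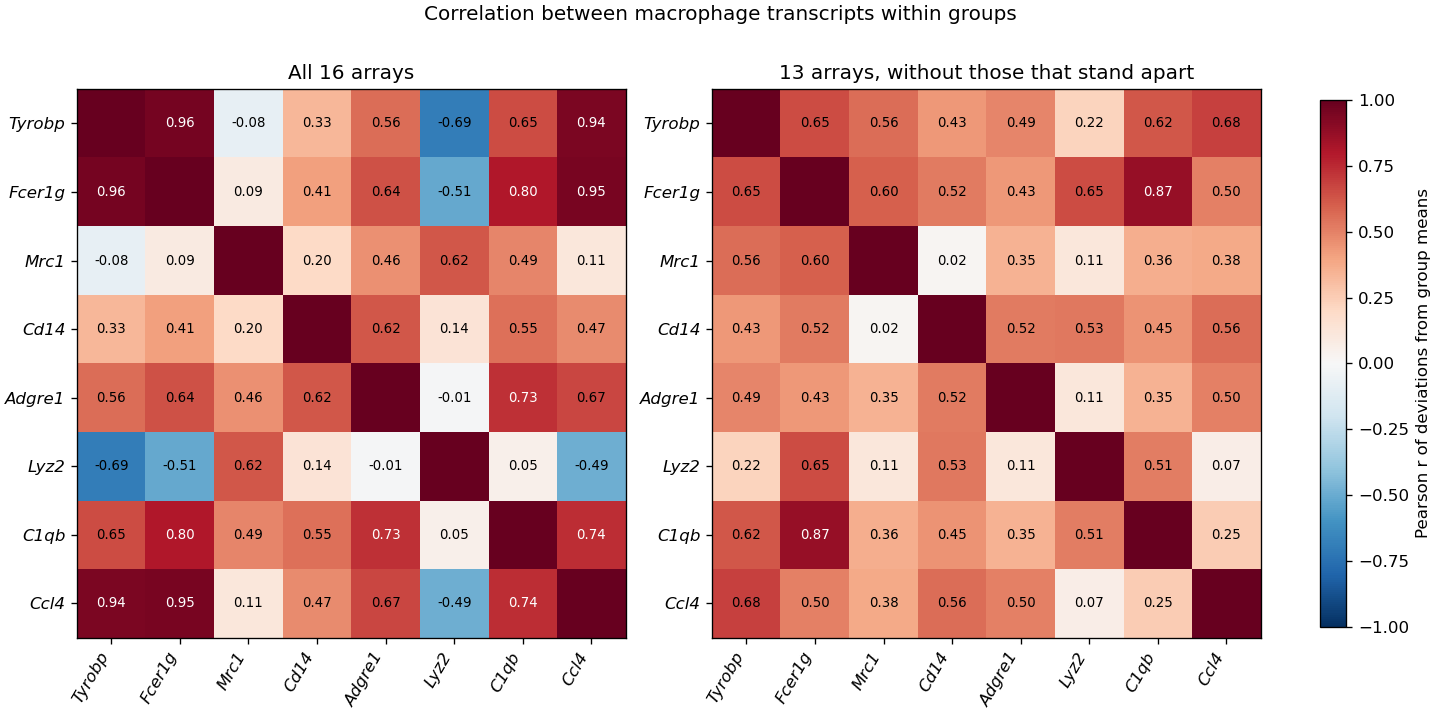
Pearson correlation (colour and printed value) between each pair of the 8 macrophage transcripts on both axes, from deviations from group means, on all 16 arrays (left) and on the 13 without the arrays of low ribosomal protein signals (right). Negative values for Lyz2 with Tyrobp, Fcer1g and Ccl4 appear on the left, and no value is below 0 on the right.

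The shared movement on the 13 arrays was small in size. The residual SD within groups on the 13 was 0.12 for Tyrobp, 0.12 for Fcer1g, 0.16 for Mrc1, 0.20 for Cd14, 0.17 for Adgre1, 0.08 for Lyz2, 0.16 for C1qb and 0.19 for Ccl4, against a median of 0.11 over all genes. On all 16 arrays it was 0.48 for Tyrobp, 0.46 for Fcer1g and 0.52 for Ccl4, against a median of 0.16. On some arrays most of the genes lay on one side. On SC replicate 2 all 8 genes lay below their group mean, and on SC replicate 3, 7 of 8 lay above it. With means taken over the 13 arrays, 8 of 8 lay above on BICC1_3 replicate 2, 7 of 8 above on BICC1_1 replicate 4 and 7 of 8 below on BICC1_2 replicate 4. Other arrays were split, with 4 of 8 above on SC replicate 4 and 3 of 8 above on each of BICC1_1 replicate 2, BICC1_3 replicate 3 and BICC1_3 replicate 4. The share of all genes above the group mean was 48.3%, 48.3%, 57.6%, 50.2% and 47.7% on the first 5 of these arrays.

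A set of transcripts carried by one cell type whose share varies would shift by equal amounts on the log2 scale, apart from noise and background. Noise in the gene used as the covariate also pulls fitted slopes toward 0, so a slope below 1 cannot show an unequal shift. The F4/80 gene Adgre1 was therefore used as a covariate beside the group, and the slope of every other gene on it was fitted. Over 16 arrays the slope was 1.26 (SE 0.49) for Tyrobp, 1.40 (SE 0.44) for Fcer1g, 0.45 (SE 0.25) for Mrc1 and 0.56 (SE 0.21) for Cd14. It was 0.98 (SE 0.25) for C1qb, 1.65 (SE 0.48) for Ccl4 and -0.01 (SE 0.38) for Lyz2. No gene in the whole table passed adjustment (0 of 9559, background 0%, limma), although 1222 had an unadjusted p under 0.05. Of the 7 macrophage genes, 5 rose with Adgre1 at that unadjusted level, against 7.92% of all genes, with adjusted p from 0.238 for C1qb to 0.352 for Tyrobp.

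On the 13 arrays all 7 slopes were above 0, from 0.05 (SE 0.17) for Lyz2 to 0.61 (SE 0.31) for Cd14, with a median of 0.32. Over all genes 50.8% were above 0. The sign of a slope is that of the correlation with Adgre1 within groups, so these signs only repeat the pair correlations above. None had an unadjusted p under 0.05 there. With other members in the place of Adgre1 on 16 arrays, calls appeared, but over much of the table. With Tyrobp as the covariate 3 of 7 rose, where 20.2% of all genes did. With Fcer1g it was 4 of 7 beside 17.8%, with Ccl4 4 of 7 beside 17.0%, and with Lyz2 1 of 7, Mrc1, beside 13.3%. With the 3 arrays left out, each of these covariates gave 0.

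**Figure D5:**
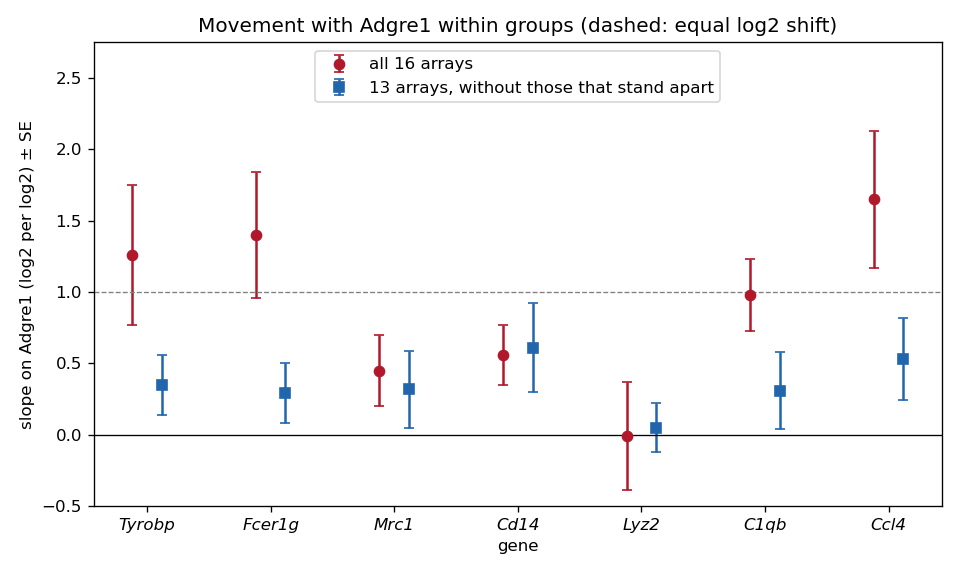
Slope on Adgre1 (y axis, log2 per log2, with SE) of the other 7 macrophage transcripts (x axis), within groups, on all 16 arrays (circles) and on the 13 without the arrays of low ribosomal protein signals (squares). The dashed line marks a slope of 1, an equal log2 shift if Adgre1 were measured without noise. Lyz2 stays near 0 on both sets, and Tyrobp, Fcer1g, C1qb and Ccl4 have lower slopes on the 13.

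The wider macrophage programme was read from a list of 49 other markers, of which 29 were tested. Detected genes included C1qa and C1qc, the partner chains of C1qb, Trem2, a receptor that signals through Tyrobp, and Fcgr3, a receptor that signals through Fcer1g. Ptprc, the pan-leukocyte antigen CD45, Itgam, Itgb2, Cd163, Msr1, Cybb and Siglec1 were detected on no array. Of the 29, 0 were called in any comparison. For BICC1_1 against SC, 25 of 29 lay above 0 with a median of 0.18, for BICC1_2 20 with a median of 0.03 and for BICC1_3 20 with a median of 0.05. Without the 3 arrays these medians were 0.13, 0.02 and 0.17. The summed linear level of the 29 ran from 22401 to 24179 in SC, from 24685 to 28442 with BICC1_1, from 22090 to 25768 with BICC1_2 and from 24593 to 25268 with BICC1_3. The ranges of BICC1_1 and BICC1_3 thus lay above that of SC on this sum, for which no test was made. The sum is weighted to its brightest genes, Arhgdib and Gpnmb, and Gpnmb is also known as osteoactivin from its expression in osteoblasts.

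Most of the other markers leaned the same way as the 8 genes from array to array, some of them only weakly. The correlation with the mean scaled deviation of the 8 was positive for 28 of 29 on 16 arrays and for 26 of 29 on the 13, with a median of 0.50 in both, against medians of 0.02 and 0.05 over all genes. Over the other named genes, 51.7% and 56.2% were positive. A marker at r = 0.50 ranked 1377 of 8824 other named genes on 16 arrays (Ctss) and 727 on the 13 (Pf4). Below 0 were Gpnmb at -0.29 on 16 arrays, and Rac2 at -0.37, C1qa at -0.16 and Plek at -0.11 on the 13. On SC replicate 2, 22 of 29 lay below the group mean, where 8 of 8 of the named genes did. On BICC1_1 replicate 4, 24 of 29 lay above it and on BICC1_3 replicate 2, 23 of 29, while on SC replicate 3, where 7 of 8 named genes lay above, the split was 15 above and 14 below. On Adgre1, 26 of 29 had a slope above 0 on 16 arrays and 21 of 29 on the 13, beside 50.5% and 50.8% of all genes.

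The genes most like the mean of the 8 over 16 arrays, among 8824 other named genes, were Qtrt1, a tRNA-modifying enzyme subunit (r = 0.94), Sri, a calcium-binding protein (0.92), Cd320, the transcobalamin receptor (0.91), Ms4a6d (0.91) and Clp1, an RNA kinase (0.90). Ms4a6d was the 1 among these 5 that is on the macrophage list. On the 13 arrays the 5 were Nrbp1 (0.90), Qtrt1 (0.89), Paf1 (0.89), Hsd17b7 (0.88) and Glyr1 (0.88), none of them on the list. C1qc, Fcgr3 and Trem2 had r of 0.89, 0.88 and 0.80 on 16 arrays and of 0.55, 0.53 and 0.87 on the 13. C1qa had 0.66 on 16 arrays and -0.16 on the 13. Among the 100 genes most alike, 5 of the 29 other macrophage markers appeared on 16 arrays and 3 on the 13.

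Genes that act with the 8 were also measured. Of 21 partners of the Tyrobp and Fcer1g adaptors, 10 were tested and 0 called. Trem2 differed from SC by 0.40, 0.01 and 0.02 (each SE 0.19) with BICC1_1, BICC1_2 and BICC1_3. On the 13 arrays it was 0.47, 0.05 and 0.28 (each SE 0.10), with adjusted p = 0.132 for BICC1_1, which did not pass. Fcgr3 gave 0.18, 0.11 and -0.08 (each SE 0.11), and 0.12, 0.07 and 0.05 (each SE 0.08) on the 13. Clec4d, a C-type lectin receptor, gave 0.11, -0.02 and -0.02 (each SE 0.18), and 0.11, -0.01 and 0.24 (each SE 0.09) on the 13. The C1q partners gave 0.29, 0.05 and -0.04 (each SE 0.14) for C1qc and 0.17, 0.02 and -0.17 (each SE 0.16) for C1qa. On the 13 they gave 0.22, 0.02 and 0.15 (each SE 0.08) and 0.17, 0.03 and 0.06 (each SE 0.10). Beside Ccl4, the related chemokine Ccl3 gave 0.19, -0.32 and -0.17 (each SE 0.18), or 0.26, -0.23 and 0.01 (each SE 0.15) on the 13, and 0 of the 4 chemokine genes tested of 9 listed were called. The brightest of these, Ccl9, gave 0.19, 0.17 and 0.15 (each SE 0.10), and 0.11, 0.15 and 0.23 (each SE 0.07) on the 13. Around Cd14, Tlr4 gave 0.12, 0.18 and 0.23 (each SE 0.10) and its partner Ly96 gave -0.05, 0.04 and -0.42 (each SE 0.28), with 0 of 10 tested called. On the 13 arrays Tlr4 gave 0.05, 0.10 and 0.16 (each SE 0.06) and Ly96 gave 0.13, 0.07 and -0.02 (each SE 0.07), so the Ly96 difference with BICC1_3 rested on the arrays left out.

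The ligands of Csf1r were present in these cultures. Csf1 differed from SC by 0.11, -0.02 and 0.04 (each SE 0.07), and by 0.13, -0.02 and -0.01 (each SE 0.07) on the 13. Il34 differed by 0.28, 0.16 and 0.37 (each SE 0.14), with unadjusted p = 0.0147 and adjusted p = 0.466 for BICC1_3, and by 0.18, 0.12 and 0.29 (each SE 0.12) on the 13. Of 9 such ligand and recruitment genes tested of 13 listed, 0 were called. Spi1, the gene of PU.1, was detected on 6 arrays and gave 0.26, 0.10 and 0.14 (each SE 0.16), or 0.32, 0.05 and 0.30 (each SE 0.14) on the 13, and 0 of 6 myeloid transcription factors tested were called. Lysosomal genes, the class to which Cd68 belongs, were measured by 13 of 16 listed, of which 0 were called, with median differences from SC of 0.02, 0 and 0.03. The brightest of them, the protease gene Ctsb and the membrane protein gene Cd63, gave 0.01, 0 and 0.03 (each SE 0.08) and 0, 0.03 and -0.15 (each SE 0.10). On the 13 they gave -0.02, 0 and -0.01 (each SE 0.08) and 0.02, 0 and -0.01 (each SE 0.05).

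Markers of other blood and vessel cells were also read. Of 10 dendritic cell markers 0 were tested, of 12 neutrophil markers 1, S100a8, and of 15 lymphocyte and mast cell markers 2. Of 10 endothelial markers 5 were tested, with Eng, Egfl7, Esam and Ramp2 detected on all 16 arrays, while the defining genes Pecam1, Cdh5, Kdr and Tie1 were detected on no array. Of 13 osteoclast markers 9 were tested. Ctsk, Clcn7, Tcirg1, Nfatc1, Mmp9 and Tnfrsf11a were detected on all 16 arrays, Itgb3 on 15, Oscar on 14 and Acp5 on 9. The fusion gene Dcstamp, the calcitonin receptor gene Calcr, Ocstamp and Atp6v0d2 were detected on no array. The summed level of the 9 ran from 5329 to 5488 in SC, from 5216 to 5980 with BICC1_1, from 5208 to 6021 with BICC1_2 and from 5180 to 5813 with BICC1_3, with all groups overlapping. Over all lists, 216 genes were listed, 105 tested and 0 called in any of the 6 comparisons on 16 arrays. Of all genes, 0.0105% to 0.282% were called per comparison. With so low a background, the counts of 0 here and for each list above say nothing particular about these genes.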

How the data were processed

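Total RNA of 16 cultures, 4 in each of 4 siRNA groups, was hybridised to 1-colour Illumina bead arrays. The deposited non-normalized table gave a probe intensity and a detection score per array, made with GenomeStudio per the submitters' processing notes, with version and settings not given in the sources used here. The deposited detection score is headed as a p-value but rises with brightness, so 1 minus the score was used as the detection p. The authors' deposited log2 values, whose normalisation is not stated, served as an alternative. The array platform's annotation gave 1 symbol to 23978 of 25697 probes.

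Intensities were background-corrected by normexp using detection p (offset 16), quantile-normalised and taken to log2 (limma 3.58.1, R 4.3.3). Probes with detection p under 0.05 on at least 4 arrays were kept (12802), and the brightest kept probe stood for its gene, leaving 9560 features. One linear model over the 4 groups with moderated statistics was fitted, and p-values were adjusted by Benjamini-Hochberg over all features. Correlations used deviations from group means, with 100000 permutations within groups, two-sided. The fits were also run on simulated data with independent genes and a covariate free of noise. These arrays differ on both counts, so that run does not vouch for the slopes here. No array pair was identical. Depth has no meaning for these intensities, and the number of arrays limits precision.

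The 10 genes and all lists were chosen with earlier results of these data known. Named genes were the detected members, a fixed set of partners, the 2 brightest tested genes of each list, and the 5 most alike. Alternatives changed scaling, source table, detection filter, probe choice, replicate block, array weights, shared spread, covariate and arrays left out.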

Additional observations from a re-analysis of the deposited data

Results flagged for a closer look

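In groups of 4 arrays, 32 sets of values of the 8 macrophage transcripts were examined for 1 array far from the other 3, meaning that its gap to the nearest, as a share of the whole range, was above Dixon's critical value for 4. Chance gives about 1 in 20 such sets, and 6 were found. BICC1_3 replicate 1 was far below its group for Tyrobp at 5.79 (others 7.39 to 7.64), for Fcer1g at 8.52 (others 10.22 to 10.32), for C1qb at 8.64 (others 9.51 to 9.63) and for Ccl4 at 5.95 (others 7.75 to 8.07). BICC1_1 replicate 3 was far above its group for Lyz2 at 12.83 (others 11.75 to 11.89). BICC1_2 replicate 3 was below its group for Tyrobp at 7.05, where the other 3 arrays all stood at 7.35. All 6 lie on the 3 arrays whose ribosomal protein and NADH dehydrogenase medians were low, and their part in these values was not tested.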

How the results depend on the processing

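No alternative called any of the 8 genes except that Lyz2 was called without the 3 arrays of low ribosomal protein signals, where 1 of 8 was called for BICC1_2 against SC, BICC1_1 against BICC1_2, BICC1_2 against BICC1_3 and over the 4 groups. In that setting uncalled differences turned sign for 6 of 8 genes in BICC1_2 against BICC1_3 (0 of 8 above 0), and among others for Lyz2 with BICC1_1 (-0.06 against SC, -0.11 against BICC1_3) and, with BICC1_3 against SC, for Tyrobp (0.09), Fcer1g (0.19), Adgre1 (0.09) and C1qb (0.16). Array quality weights gave 0.06, 0.15, 0.07 and 0.14 for those 4, and -0.07 for Lyz2 in BICC1_1 against BICC1_3. Median scaling gave 0.06 for C1qb with BICC1_2 against SC, and the mean of kept probes gave -0.01 for Adgre1 there and -0.02 for Lyz2 in BICC1_1 against BICC1_3. The cause of these turns was not tested. Leaving out each array in turn gave, for BICC1_1 against SC, -0.06 to 0.21 for Tyrobp, -0.06 to 0.30 for Lyz2 and -0.06 to 0.14 for Ccl4. For BICC1_2 against SC it gave -0.08 to 0.12 for Cd14, -0.01 to 0.07 for Adgre1 and -0.11 to 0.07 for C1qb. For BICC1_3 against SC it gave -0.52 to 0.09 for Tyrobp, -0.41 to 0.19 for Fcer1g, -0.07 to 0.09 for Cd14, -0.11 to 0.09 for Adgre1 and -0.17 to 0.16 for C1qb. Lyz2 in BICC1_1 against BICC1_3 ran from -0.23 to 0.14. The median correlation of the 8 ran from 0.23, without BICC1_3 replicate 1, to 0.55 over the single arrays left out. The covariates Tyrobp, Fcer1g, Lyz2 and Ccl4 in place of Adgre1 gave 3, 4, 1 and 4 genes rising. Same-numbered arrays did not deviate together as a rule (24 pairs, median r -0.03, r from -0.59 to 0.61, 9 over 0.1, 6 of 16 arrays nearest to their own number). Replicate 3 of BICC1_1 and of BICC1_2 did, with Tyrobp at -0.55 and -0.23 and Lyz2 at 0.76 and 0.32 from the group mean. On replicate 3 of SC and of BICC1_3, Tyrobp stood at 0.20 and 0.32 and Lyz2 at -0.01 and -0.19. The replicate block called 0 of 8 in every comparison and gave a median correlation of 0.34, against 0.48 without it. Whether arrays of one number share a source of deviation was not tested. The 3 arrays were singled out in these same data. Leaving them out under other covariates and under Spearman's rho as well was chosen after the other results were seen. It gave 0 genes rising and a median of 0.38. The limits are 4 arrays a group, unknown independence of replicates, and no probes for Csf1r and Cd68.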

Other observations

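S100a8, a calcium-binding protein gene of neutrophils and monocytes, was detected on 11 arrays and lay below SC by a difference of -1.16 with BICC1_1, -0.42 with BICC1_2 and -1.04 with BICC1_3. None of these was called, and without the 3 arrays of low ribosomal protein signals they were -0.93, -0.25 and -0.72. Its partner gene S100a9 was detected on 2 arrays and was not tested.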
